A study of Mus musculus with 36 samples.

Results

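Cancer cells that expressed the F133V mutant of SPOP were compared with vector cancer cells after both had been grown opposite macrophages in medium with DMSO. The members were chosen by their labels alone: the 3 cancer-cell libraries of F133V cells in coculture with RAW264.7 cells and DMSO, against the 3 of empty vector (EV) cells in the same coculture with DMSO. They are 6 of the 36 libraries of the series, and the values below run over all 15962 genes that passed a filter on low counts.

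The cancer cells were RM-1-BM, a mouse prostate cancer line, transduced either with SPOP F133V or with the empty vector. RAW264.7 is a mouse macrophage line. Cells shared medium across a transwell membrane, and the cancer-cell side was sequenced. The series also holds both genotypes of cancer cell grown alone, the same cultures with olaparib (an inhibitor of PARP enzymes) in place of DMSO, and the macrophages themselves. In the F133V group every library carries the SPOP F133V transgene, the macrophage partner and the vehicle. The vector group carries the empty vector, the same partner and the same vehicle, so macrophage contact through medium and DMSO are common to both and are not what is compared. The labels do not say whether the cells of a genotype are 1 clone or a pool, which promoter drives SPOP, how long the cells were cocultured, or whether separate cultures stand behind the 3 libraries of each group. The p-values therefore reflect the variation among the sequenced libraries, which may be technical. The genotype label of the vector cells reads wild type.

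SPOP is the substrate-binding arm of a cullin-3 ubiquitin ligase. It recruits proteins for ubiquitination, many of them for degradation by the proteasome, and prostate cancer mutations such as F133V lie in its substrate-binding domain. Known substrates include the transcriptional readers BRD2 and BRD3, the coactivator NCOA3, the coregulator TRIM24 and the phosphatase DUSP7. Abundance of these proteins was not measured here, and the values that follow are transcripts only. Background for the genes most changed is as follows. NRF2 (gene Nfe2l2) is held down by a second cullin-3 adaptor, KEAP1, and when free it raises enzymes that make glutathione and reduce thioredoxin. HSF1 raises chaperones when proteins misfold, the kinases of the integrated stress response raise amino acid transport and synthesis through ATF4, and interferons raise antiviral genes through STAT2 and IRF9.

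Gene counts ranged from 32424646 to 42028822 per library, and between 17.2% and 20.9% of counted reads lay in no gene. Log CPM values of any pair of libraries in a group correlated across genes at 0.9935 to 0.9953, and the common biological coefficient of variation of the fit was 2.61%. F133V replicate 1 stood apart by its counts: chi-square per gene was 18.14 and 11.78 in its pairs, against 2.79 for the other F133V pair and 2.46 to 2.94 for the vector pairs. Its share of reads in no gene was 20.9%, against 17.2% and 18.2% in the other F133V libraries. By log CPM values it did not stand apart. F133V replicates 1 and 2 correlated at 0.9941, and each with replicate 3 at 0.9935. On the second principal component (3.3% of variance) replicate 3 lay at 29.21, against −15.01 and −14.25 for replicates 1 and 2. Named genes whose call turns on F133V replicate 1 are given with the noncoding RNA. Levels are given as CPM, gene counts as parts of the library total, after TMM scaling. This rescales that total on the assumption that most genes do not change. They are given as single libraries or as mean ± SD of 3 libraries. Log2 fold changes are F133V over vector, ± SE, by the quasi-likelihood F test of edgeR, and p-values were adjusted over all genes (Benjamini-Hochberg). A gene is called where that p was under 0.05. On library totals alone, the 22 macrophage markers together took 11.3 to 12.6 CPM in F133V libraries and 12.5 to 13.9 CPM in vector libraries, against 13200 to 15700 CPM in the macrophage libraries. Adgre1, which encodes F4/80, had 0 to 2 counts per F133V library and 0 counts in every vector library. Lyz2 was not called (adjusted p = 0.13), but was called higher with only the compared groups fitted (0.62) and without the count filter (0.57). Of 9 tested macrophage markers 2 were called higher and 1 lower. Cd68, which was called, read 5.02 to 5.37 CPM in F133V libraries and 2.75 to 3.99 CPM in vector libraries. In macrophage libraries it read 1060 to 1170 CPM. The 18 markers of fibroblasts, endothelium and lymphocytes summed to 36.6 to 38.3 CPM in F133V libraries and 252 to 270.0 CPM in vector libraries. Most of this was Dcn, a matrix proteoglycan (37.8 ± 0.666 CPM in F133V against 232 ± 8.98 CPM in vector cells after TMM scaling), and the part of other cells in the results was not tested. In bulk samples fewer cells of a kind and less RNA per cell cannot be told apart. Again on library totals alone, vimentin read 1040 to 1110 CPM in F133V libraries and 1120 to 1130 CPM in vector libraries. TMM scaling turns this order, so that the F133V libraries read higher. The epithelial genes Epcam (0 to 0.0617 CPM in F133V and 0.0874 to 0.263 CPM in vector libraries) and Cdh1 were at or near 0, although the labels call the cells epithelial.

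Spop itself, the transduced gene (chromosome 11, 95414080 to 95493406, plus strand, GRCm38), read 93.7, 97.2 and 99.4 CPM in F133V libraries, against 123, 124 and 126 CPM in vector libraries. The F133V libraries were all lower (−0.36 ± 0.03, adjusted p = 2.8e-13). For each gene given library by library below, likewise, the groups did not overlap. Whether transcripts of the introduced construct are counted under Spop is not stated by the labels, so this level does not check the genotype. Cul3, the scaffold of the ligase, was also lower (118 ± 5.66 CPM in F133V against 162 ± 2.85 CPM in vector cells; −0.46 ± 0.04, adjusted p = 1.4e-14).

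Promoters of 8 genes are shown, each holding a motif known from the response its group is named for: glutathione and thioredoxin enzymes (Gclm, Txnrd1), heat shock proteins (Hspa1b, Hspb1), amino acid response genes (Tars, Asns) and interferon-responsive genes (Oas3, Irgm1). Each line is the 150 bases before the transcription start, 5′ to 3′ on the gene's strand, from the RefSeq promoter table (GRCm38.p6). Capitals mark matches, on either strand, to TGACNNNGC (antioxidant response element) in the first pair, GAANNTTC (2 facing heat shock units) in the second, TGATGNAA (amino acid response element) in the third and a pair of GAAA units 2 bases apart (interferon-stimulated response element) in the last. The windows are chr3:122245407-122245556 (plus) for Gclm, chr10:82859056-82859205 (plus) for Txnrd1, chr17:34959239-34959388 (minus) for Hspa1b, chr5:135887769-135887918 (plus) for Hspb1, chr15:11399659-11399808 (minus) for Tars, chr6:7693210-7693359 (minus) for Asns, chr5:120777660-120777809 (minus) for Oas3 and chr11:48871421-48871570 (minus) for Irgm1.
Gclm: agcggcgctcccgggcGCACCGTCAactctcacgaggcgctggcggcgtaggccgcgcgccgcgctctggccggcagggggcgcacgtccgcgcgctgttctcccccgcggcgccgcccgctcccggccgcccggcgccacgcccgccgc
Txnrd1: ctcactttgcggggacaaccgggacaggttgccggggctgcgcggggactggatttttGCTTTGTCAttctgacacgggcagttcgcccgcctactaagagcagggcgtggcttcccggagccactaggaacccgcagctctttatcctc
Hspa1b: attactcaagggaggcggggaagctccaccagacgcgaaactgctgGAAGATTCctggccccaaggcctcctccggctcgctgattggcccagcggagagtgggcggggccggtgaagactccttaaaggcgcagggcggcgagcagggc
Hspb1: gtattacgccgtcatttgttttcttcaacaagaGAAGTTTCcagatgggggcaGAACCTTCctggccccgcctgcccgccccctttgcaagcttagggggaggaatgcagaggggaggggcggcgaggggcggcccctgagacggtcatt
Tars: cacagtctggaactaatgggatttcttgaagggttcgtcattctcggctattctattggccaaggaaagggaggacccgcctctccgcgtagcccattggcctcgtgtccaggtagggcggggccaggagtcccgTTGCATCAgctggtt
Asns: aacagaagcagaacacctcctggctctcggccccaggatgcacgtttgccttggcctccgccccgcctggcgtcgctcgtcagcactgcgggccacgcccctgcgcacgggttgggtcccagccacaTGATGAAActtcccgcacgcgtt
Oas3: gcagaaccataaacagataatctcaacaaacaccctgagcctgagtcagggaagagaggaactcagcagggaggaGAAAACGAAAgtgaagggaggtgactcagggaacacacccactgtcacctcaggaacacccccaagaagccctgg
Irgm1: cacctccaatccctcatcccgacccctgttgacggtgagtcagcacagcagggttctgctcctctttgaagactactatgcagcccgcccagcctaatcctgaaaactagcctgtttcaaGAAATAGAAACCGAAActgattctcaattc
Of the 3 annotated starts of Txnrd1 the one with a match is shown, and the 2 matches of Irgm1 overlap. Such short motifs also occur widely. Over the whole window of 300 bases (250 before and 50 after the start), TGACNNNGC was present for 14.0% of all 27025 genes and 16.9% of tested genes, GAANNTTC for 9.04% and 6.95%, TGATGNAA for 4.51% and 2.81%, and the GAAA pair for 3.99% and 3.54%. Among tested members with a window, GAANNTTC was found for 10 of 16 heat shock chaperones and the GAAA pair for 11 of 28 interferon-stimulated genes and 6 of 7 interferon-inducible GTPases. TGATGNAA was found for 5 of 12 cytosolic tRNA synthetases, 7 of 22 integrated stress response genes, 3 of 14 amino acid transporters and 3 of 16 serine, one-carbon and asparagine genes. TGACNNNGC was found for 5 of 19 thioredoxin and peroxiredoxin genes, 4 of 15 NADPH and quinone enzymes and 2 of 12 glutathione genes, the last a share of 16.7%, near that of all tested genes. The sterol response element TCACNCCAC was found for 1 of 21 sterol genes, against 1.35% of tested genes. A match is a description of these letters and not a binding site, and windows were found for 10057 of the 15962 tested genes.

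The comparison was broad. Of 15962 genes, 5975 were higher (37.4%) and 6711 lower (42%) in F133V cells, 79.5% in all, so the counts for each gene group below are to be read against these shares. Many changes were small, and 35.7% of called genes differed by less than 1.5-fold. At 2-fold or more, 1941 genes were higher and 3065 lower. At 8-fold or more the numbers were 366 and 379. The 3 libraries of one group did not overlap those of the other for 80.1% of genes. TMM factors were 0.849 to 0.866 in F133V libraries and 1.017 to 1.023 in vector libraries, and without them (library size alone) the median of all genes moved by −0.253 on the log2 scale and calls were 34.7% higher instead of 47.1%. TMM assumes that most genes do not change, while 79.5% were called, so directions, above all of small changes, rest on that assumption. Directions below that this scaling turns are named.

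**Figure D1:**
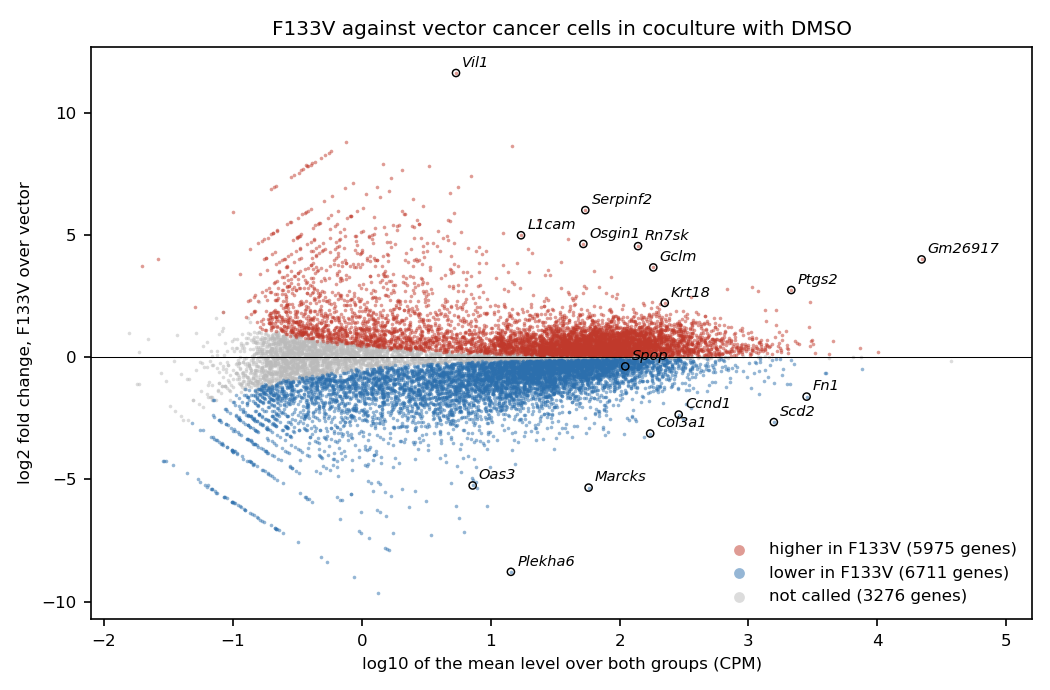
Each point is 1 of 15962 genes, with the log10 of its mean level in CPM over both groups on the x axis and the log2 fold change of F133V over vector cells in coculture with DMSO on the y axis. Colours give the call at an adjusted p under 0.05 (5975 higher, 6711 lower, 3276 not called), and circled genes are among those named in the text, from Vil1 at the top to Plekha6 at the bottom. The height of Vil1 is a fitted value that depends on the prior count, since no vector library holds a count of it.

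The largest single differences were in genes nearly silent in one of the groups. Vil1, an actin-bundling protein of brush borders, had 353, 396 and 300 counts in the F133V libraries and no count in any vector library. Set against a floor of 3 counts over the 3 vector libraries, that is at least 420.4-fold higher in F133V cells. Epha8, an ephrin receptor, had 212, 257 and 175 counts in F133V libraries against 3, 0 and 0 in vector libraries. In the other direction Plekha6, a pleckstrin-homology protein, had 1, 2 and 3 counts in F133V libraries against 1117, 1198 and 1035 in vector libraries, and Capn6, an atypical calpain, 2, 0 and 2 against 274, 285 and 236. These 4 genes were the ones over 5 CPM in one group with at most 3 counts in every library of the other.

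Among the other large rises, Serpinf2, the plasma inhibitor of plasmin, read 109, 106 and 106 CPM in F133V libraries, against 1.76, 1.66 and 1.42 CPM in vector libraries. The vector libraries were all under 2 CPM (6.04 ± 0.06, adjusted p = 1.3e-42). Fgfr4, a fibroblast growth factor receptor, read 14.0 ± 0.811 CPM in F133V against 0.0787 ± 0.0524 CPM in vector cells (7.45 ± 0.26, adjusted p = 8.7e-26), and Pygm, the muscle form of glycogen phosphorylase, 46.3 ± 0.758 CPM in F133V against 0.934 ± 0.193 CPM in vector cells (5.62). Slc8a2 (a sodium-calcium exchanger), Npc1l1 (the intestinal cholesterol importer), Best2 (a chloride channel), Bhlha15 (a transcription factor of secretory cells), Pvrl4 (nectin-4), Ifitm10 and Apol8 completed the 12 largest among named genes that reached 5 CPM in either group, with log2 fold changes of 5.58 to 6.97 and means of 5.23 to 11.1 CPM in F133V cells. The 12 largest falls included Marcks, a membrane substrate of protein kinase C, at 3.14, 2.25 and 3.03 CPM in F133V libraries, against 108, 121 and 107 CPM in vector libraries. Nefl, the light neurofilament, was at 0.258 ± 0.138 CPM in F133V against 18.4 ± 0.876 CPM in vector cells (−6.09), and Plin4, a lipid droplet coat protein, at 0.436 ± 0.103 CPM in F133V against 14.9 ± 0.568 CPM in vector cells (−5.09). Tbc1d9, Armcx2, Cpne8, the matrix protein Tnr and the citrullinating enzyme Padi1 had log2 fold changes of −5.15 to −7.16, and Krt8 and Oas3 are described with their groups.

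SPOP and 42 other genes of its ligase and reported substrates gave 23 higher and 12 lower among 39 tested (median log2 fold change 0.23), and with library size alone 15 higher and 16 lower. Myc led the rises at 111 ± 3.86 CPM in F133V against 31.8 ± 1.59 CPM in vector cells (1.80 ± 0.05, adjusted p = 5.0e-30). Sqstm1, the autophagy receptor p62, which also binds KEAP1, was at 4179 ± 89.3 CPM in F133V against 1770.0 ± 4.00 CPM in vector cells (1.24). Puf60, a splicing factor, and Gli3, a transcription factor of the Hedgehog pathway, changed by 0.93 and 0.96. Ccne1, cyclin E1, fell to 4.70 ± 0.199 CPM in F133V against 11.4 ± 0.571 CPM in vector cells and Dusp7 to 13.1 ± 0.611 CPM in F133V against 26.8 ± 0.536 CPM in vector cells. The list mixes proteins of unrelated function, since its members are joined only by reports that SPOP binds them.

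Antioxidant genes changed in both directions. Both subunits of glutamate-cysteine ligase, glutathione reductase and both chains of the cystine importer were among the most raised. Gclm, the modifier subunit of glutamate-cysteine ligase, read 332, 353 and 332 CPM in F133V libraries, against 25.4, 26.4 and 27.1 CPM in vector libraries. The vector libraries stood far below the F133V libraries (3.69 ± 0.03, adjusted p = 2.4e-44). Gclc, the catalytic subunit, read 294 ± 1.49 CPM in F133V against 60.5 ± 1.45 CPM in vector cells (2.28), and Gsr, which regenerates reduced glutathione, 253 ± 6.74 CPM in F133V against 57.4 ± 1.15 CPM in vector cells (2.14). The cystine importer pair was Slc7a11 at 2046, 2041 and 2114 CPM in F133V libraries, against 304, 321 and 316 CPM in vector libraries, and its partner chain Slc3a2 at 2140.0 ± 56.8 CPM in F133V against 559 ± 5.82 CPM in vector cells (1.94). Of 15 tested glutathione genes 6 were higher, the sixth being Chac2 (0.83), and 9 lower. Gpx4, the peroxidase that protects membrane lipids, fell to 117 ± 4.53 CPM in F133V against 306 ± 2.91 CPM in vector cells (−1.39 ± 0.02, adjusted p = 1.6e-35). Chac1 fell too (−0.81).

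Of thioredoxin and peroxiredoxin genes, 8 of 21 were higher and 12 lower, a share of higher genes near the 37.4% of all genes. Txnrd1, cytosolic thioredoxin reductase, read 1870.0, 1910.0 and 1845 CPM in F133V libraries, against 255, 252 and 257 CPM in vector libraries (2.88 ± 0.02, adjusted p = 6.9e-47). Prdx6, a peroxiredoxin, rose to 603 ± 11.6 CPM in F133V against 247 ± 5.69 CPM in vector cells. Srxn1, sulfiredoxin, rose to 135 ± 3.07 CPM in F133V against 72.2 ± 0.491 CPM in vector cells. Prdx4, the peroxiredoxin of the endoplasmic reticulum, and Prdx2 fell, with −1.23 and −0.97. NADPH and quinone enzymes gave 7 higher and 7 lower of 17 tested. Osgin1, an oxidative stress response gene, was the steepest of the NADPH and quinone group at 100.3, 104 and 97.2 CPM in F133V libraries, against 3.54, 4.32 and 4.13 CPM in vector libraries, a change of 4.65 ± 0.06, adjusted p = 3.6e-39. Akr1b3, aldose reductase, read 1192 ± 22.1 CPM in F133V against 170.2 ± 2.92 CPM in vector cells (2.81) and the carbonyl reductase Cbr3 61.9 ± 2.23 CPM in F133V against 8.66 ± 0.603 CPM in vector cells (2.84). Pgd, of the pentose phosphate pathway, rose to 784 ± 19.2 CPM in F133V against 325 ± 1.02 CPM in vector cells, while Idh1, cytosolic isocitrate dehydrogenase, fell to 22.2 ± 1.09 CPM in F133V against 116 ± 1.92 CPM in vector cells (−2.38) and the epoxide hydrolase Ephx1 to 7.13 ± 0.635 CPM in F133V against 51.5 ± 1.89 CPM in vector cells. Malic enzyme Me1 was not called (217 ± 4.14 CPM in F133V against 219 ± 2.15 CPM in vector cells). Transporters that export conjugates rose too, Abcc4 by 1.78 and Abcc1 by 1.52.

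The regulators of this response had smaller fold changes. Nfe2l2, which encodes NRF2, read 324 ± 3.77 CPM in F133V against 229 ± 2.13 CPM in vector cells (0.50 ± 0.03, adjusted p = 2.1e-20), and Keap1 82.0 ± 3.42 CPM in F133V against 58.5 ± 1.69 CPM in vector cells (0.49). Bach1, a repressor that competes with NRF2 at its sites, rose more, to 262, 262 and 263 CPM in F133V libraries, against 77.7, 76.0 and 76.8 CPM in vector libraries. The small MAF partners rose as well, Maff by 1.5, Mafg by 1.43 and Mafk by 1.17. In all 8 of 12 tested control genes were higher and 3 lower. For iron and heme the counts were 15 higher and 7 lower of 24. Hmox1, heme oxygenase 1, read 408 ± 6.97 CPM in F133V against 153 ± 1.38 CPM in vector cells (1.41) and Slc40a1, the iron exporter ferroportin, 79.8 ± 2.35 CPM in F133V against 23.3 ± 0.968 CPM in vector cells (1.78). Fth1, ferritin heavy chain and among the 10 most abundant transcripts of F133V cells, changed by 0.67.

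Heat shock chaperones rose nearly as a block. Of 22 tested, 20 were higher, 0 lower and 2 not called, with a median of 0.94 against −0.06 for all genes. Hspa1b, an inducible HSP70, read 144, 155 and 149 CPM in F133V libraries, against 27.5, 25.5 and 25.7 CPM in vector libraries. Its near-identical copy Hspa1a shares sequence with it, so the split of reads between the pair is uncertain. Hspa4l and Hsph1, both HSP110-type nucleotide exchange factors, read 609 ± 12.6 CPM in F133V against 108 ± 1.38 CPM in vector cells (2.49) and 806 ± 9.60 CPM in F133V against 299 ± 3.33 CPM in vector cells (1.43). Hspb1, the small heat shock protein HSP27, read 75.6, 75.1 and 77.7 CPM in F133V libraries, against 22.2, 24.1 and 21.6 CPM in vector libraries (1.75 ± 0.05, adjusted p = 1.4e-28). The HSP40 cochaperones Dnajb1, Dnajb4 and Dnaja1 changed by 1.23, 1.17 and 1.03, and the regulator Hsf2 by 1.41. Fkbp4, an HSP90 cochaperone, was not called (228 ± 4.37 CPM in F133V against 224 ± 1.55 CPM in vector cells), nor was Cryab, which lay under 1 CPM in both groups.

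The integrated stress response was mostly higher, 17 of 24 against 7 lower (median 0.61). Atf5 read 595 ± 10.5 CPM in F133V against 254 ± 1.77 CPM in vector cells (1.23), Cebpb 168 ± 11.1 CPM in F133V against 74.0 ± 0.720 CPM in vector cells (1.18), and both regulatory subunits that return eIF2α to its active form rose, Ppp1r15a by 1.26 and Ppp1r15b by 1.36. Fgf21, a secreted stress hormone, read 34.0, 36.3 and 34.8 CPM in F133V libraries, against 10.5, 11.1 and 9.97 CPM in vector libraries. In the opposite direction, Ddit3, which encodes CHOP, was at 346 ± 2.05 CPM in F133V against 442 ± 1.37 CPM in vector cells (−0.35), and the eIF2α kinases Eif2ak3 (PERK) and Eif2ak2 (PKR, itself interferon-responsive) were at −0.98 and −1.27. Of 19 amino acid transporters 12 were higher and 5 lower. Slc38a2, the neutral amino acid transporter SNAT2, read 2566, 2639 and 2639 CPM in F133V libraries, against 671, 692 and 684 CPM in vector libraries. Slc7a1, for cationic amino acids, rose by 0.75, while Slc7a5, the LAT1 chain that also pairs with Slc3a2, fell (−0.45). Asparagine synthetase Asns and the mitochondrial folate enzyme Mthfd2 were higher (0.64 and 0.59). Pycr1, of proline synthesis, fell to 7.53 ± 0.726 CPM in F133V against 31.3 ± 0.618 CPM in vector cells (−2.06), and 12 of the 20 serine, one-carbon and asparagine genes were lower. Cytosolic tRNA synthetases were higher in 13 of 20 cases, led by Tars (566 ± 6.56 CPM in F133V against 286 ± 2.12 CPM in vector cells; 0.99), but with library size alone 7 were higher and 9 lower.

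Chaperones of the endoplasmic reticulum did not follow one direction: 15 of 28 were higher and 10 lower, and 9 higher and 15 lower with library size alone. Hspa5 (BiP) read 3798 ± 88.2 CPM in F133V against 2369 ± 53.9 CPM in vector cells (0.68) and Hsp90b1 2842 ± 53.6 CPM in F133V against 1906 ± 52.5 CPM in vector cells (0.58), while Sdf2l1 fell to 39.1 ± 1.67 CPM in F133V against 66.4 ± 1.07 CPM in vector cells (−0.76) and Sec61b, of the import channel, changed by −0.86. Proteasome subunits numbered 24 higher and 7 lower of 34 (median 0.18), with Psmc6 at 186 ± 2.52 CPM in F133V against 77.2 ± 2.66 CPM in vector cells and Psmd11 at 197 ± 7.67 CPM in F133V against 96.9 ± 2.85 CPM in vector cells among the rises and Psmd8 at 84.6 ± 1.85 CPM in F133V against 178 ± 1.19 CPM in vector cells among the falls. This direction turned with library size alone (11 higher, 18 lower).

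Genes of ribosome biogenesis rose in 40 of 46 cases and fell in 5, with a median of 0.64. With library size alone 35 were still higher and 7 lower. Gnl3, nucleostemin, read 247, 263 and 252 CPM in F133V libraries, against 89.7, 86.5 and 90.0 CPM in vector libraries. All F133V libraries stood above all vector libraries (1.52 ± 0.03, adjusted p = 8.8e-35). The nucleolar proteins Npm1 and Ncl read 2654 ± 32.0 CPM in F133V against 1239 ± 15.8 CPM in vector cells (1.10) and 2327 ± 4.75 CPM in F133V against 1128 ± 9.01 CPM in vector cells (1.04). Components of the small-subunit processome rose too, Utp20 to 421 ± 9.08 CPM in F133V against 168 ± 0.292 CPM in vector cells and Utp18 to 134 ± 0.684 CPM in F133V against 55.8 ± 1.55 CPM in vector cells, as did the helicase Ddx21 (1.12) and Rrp12 (1.22). Nop56, a core protein of box C/D particles, fell (−0.35). Myc, a known activator of these genes, is given above, and its partner Max rose by 0.74, while its antagonist Mnt was not called (108 ± 0.605 CPM in F133V against 106 ± 3.33 CPM in vector cells).

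**Figure D2:**
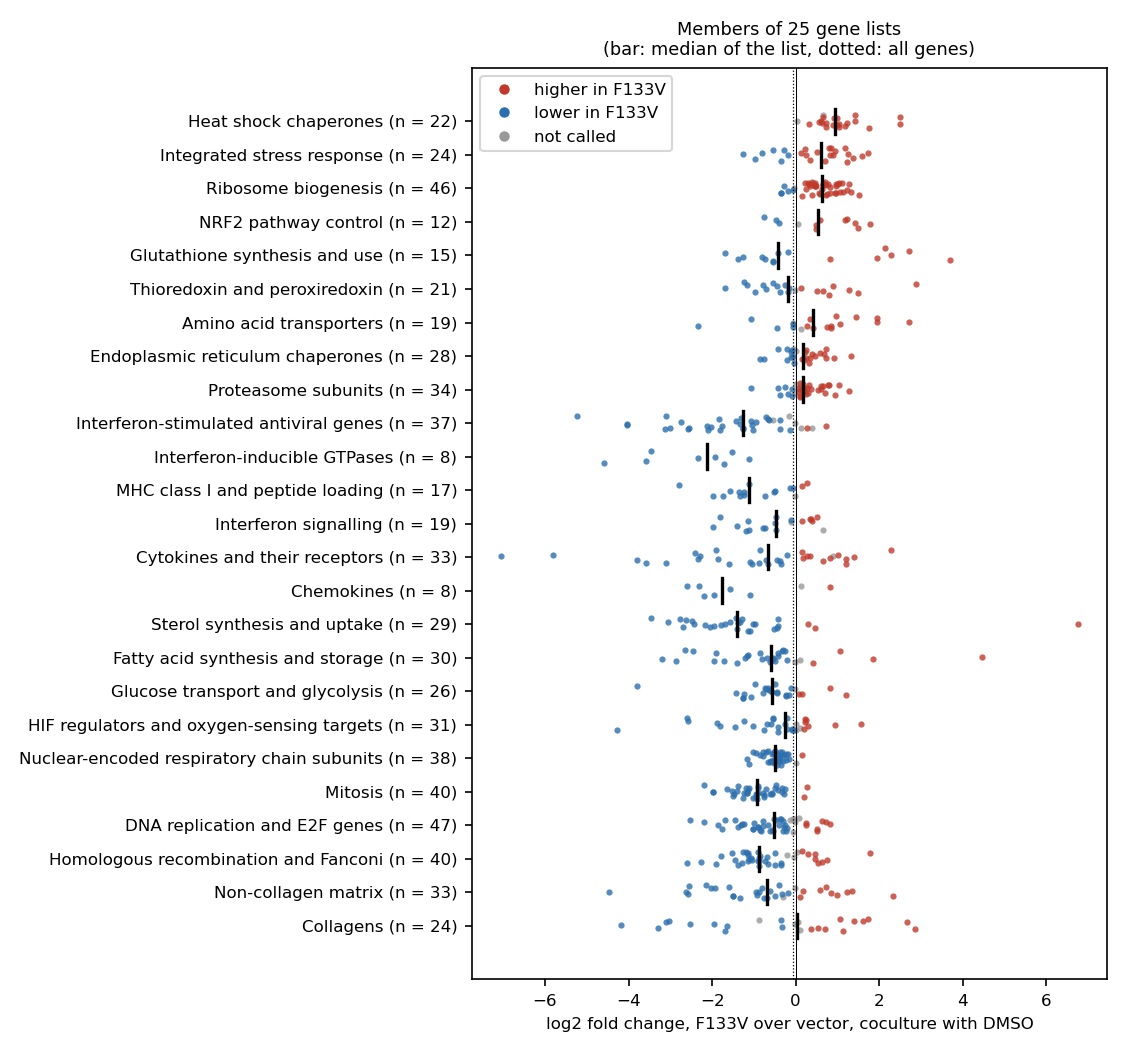
Points are single tested genes of 25 lists, placed by the log2 fold change of F133V over vector cells in coculture with DMSO and coloured by call. The black bar is the median of the list and the dotted line the median of all genes (−0.06). Heat shock chaperones lie to the right of 0 without a called exception, interferon-inducible GTPases to the left, and the glutathione list spans from −1.70 to 3.69.

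Interferon-responsive genes were lower. Of 37 tested antiviral genes 30 were lower and 2 higher (median −1.27). Oas3, an oligoadenylate synthetase, read 0.329, 0.473 and 0.285 CPM in F133V libraries, against 13.8, 14.1 and 14.5 CPM in vector libraries, a change of −5.24 ± 0.16, adjusted p = 2.1e-27. Ifitm1, a membrane protein that blocks virus entry, read 21.6, 23 and 23 CPM in F133V libraries, against 195, 193 and 199 CPM in vector libraries (−3.12 ± 0.03, adjusted p = 9.9e-44). Usp18, which damps the interferon receptor, read 1.24 ± 0.120 CPM in F133V against 8.39 ± 0.543 CPM in vector cells, Xaf1 1.37 ± 0.293 CPM in F133V against 5.98 ± 0.683 CPM in vector cells and Herc6 2.05 ± 0.168 CPM in F133V against 8.41 ± 0.239 CPM in vector cells. Isg20, an exonuclease, and Parp10 were the exceptions (0.72 and 0.28), and Adar was not called (94.1 ± 1.72 CPM in F133V against 95.6 ± 3.06 CPM in vector cells). With library size alone Parp10 was not called (0.02). All 8 tested interferon-inducible GTPases were lower, and 7 others of that list had too few counts to test. Irgm1 was the one over 5 CPM, at 14.4 ± 0.951 CPM in F133V against 31.7 ± 1.29 CPM in vector cells (−1.13 ± 0.06, adjusted p = 5.4e-20).

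The components that sense and relay the signal were lower in part. Nucleic acid sensors and adaptors gave 7 higher and 11 lower of 20, and signalling genes 5 higher and 12 lower of 19. Stat2, which relays the signal to the nucleus, read 18.1 ± 0.185 CPM in F133V against 47.8 ± 1.54 CPM in vector cells (−1.40). Receptor chains Ifnar1, Ifngr1 and Ifngr2 and the kinase Tyk2 were lower, with log2 fold changes of −1.18 to −0.77, while Jak2 and the inhibitor Socs3 were higher (0.34 and 0.39). Of the nucleic acid sensors, Ddx58 (RIG-I) fell to 12.8 ± 1.09 CPM in F133V against 36.4 ± 1.39 CPM in vector cells (−1.5), Mndal to 2.04 ± 0.226 CPM in F133V against 17.0 ± 0.361 CPM in vector cells and Tlr3 to 1.99 ± 0.189 CPM in F133V against 9.36 ± 0.702 CPM in vector cells. The kinase Tbk1 rose to 132 ± 2.17 CPM in F133V against 57.2 ± 1.82 CPM in vector cells and the adaptor Traf6 to 73.2 ± 4.22 CPM in F133V against 34.6 ± 2.23 CPM in vector cells. Class I antigen presentation followed the antiviral genes: 14 of 17 lower and 2 higher. H2-K1 read 81.6, 82.4 and 80.7 CPM in F133V libraries, against 192, 193 and 189 CPM in vector libraries. H2-D1 read 57.1 ± 2.39 CPM in F133V against 135 ± 0.914 CPM in vector cells. Class I heavy chains share sequence, so their individual counts are uncertain. B2m, the light chain common to all of them, fell to 203 ± 5.92 CPM in F133V against 291 ± 3.03 CPM in vector cells (−0.52 ± 0.03, adjusted p = 4.9e-17), and Nlrc5, the activator of the class I genes, to 1.66 ± 0.600 CPM in F133V against 6.41 ± 0.0330 CPM in vector cells.

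Signals to immune cells changed in both directions. Ligands for checkpoint and natural killer receptors gave 6 higher and 10 lower of 21 tested. Of ligands for checkpoint and natural killer receptors, Cd47, the signal that inhibits phagocytosis, fell to 31.4, 31.6 and 30.9 CPM in F133V libraries, against 127, 126 and 126 CPM in vector libraries (−2.01 ± 0.03, adjusted p = 8.6e-37). Nt5e (CD73, which makes adenosine) fell to 1.89 ± 0.466 CPM in F133V against 14.5 ± 0.603 CPM in vector cells, and Lgals9 to 2.04 ± 0.0668 CPM in F133V against 11.6 ± 1.04 CPM in vector cells, while Cd274 (PD-L1) rose to 17.8 ± 0.696 CPM in F133V against 11.1 ± 1.04 CPM in vector cells (0.67) and Pvr to 197 ± 0.584 CPM in F133V against 135 ± 0.974 CPM in vector cells. Only 8 of 29 chemokines could be tested. Ccl2, which recruits monocytes, fell to 2.07 ± 0.164 CPM in F133V against 9.44 ± 0.446 CPM in vector cells (−2.19 ± 0.12, adjusted p = 3.6e-19), as did Ccl7 (−2.32) and Ccl8 (−2.60), and Cx3cl1 fell to 13.1 ± 0.694 CPM in F133V against 51.0 ± 0.859 CPM in vector cells. Ccl25 rose by 0.82, and Ccl5 was not called. The cytokine list gave 11 higher and 21 lower of 33. Csf1, the growth factor of macrophages, rose to 175, 185 and 182 CPM in F133V libraries, against 112, 117 and 116 CPM in vector libraries (0.65 ± 0.03, adjusted p = 2.5e-23), and Il17rd and Clcf1 rose by 1.21 and 1.19. Osmr, the oncostatin M receptor, fell to 1.48 ± 0.316 CPM in F133V against 12.9 ± 0.544 CPM in vector cells and Il13ra1 to 23 ± 0.971 CPM in F133V against 69.5 ± 2.34 CPM in vector cells.

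Prostaglandin genes did not move as one: 9 of 15 tested were higher and 4 lower, and 6 higher and 5 lower with library size alone. Ptgs2 (COX-2) read 3669, 3731 and 3838 CPM in F133V libraries, against 532, 568 and 553 CPM in vector libraries, a change of 2.77 ± 0.03, adjusted p = 1.3e-43, and Pla2g4a, the phospholipase that supplies it, read 126 ± 0.562 CPM in F133V against 44.8 ± 1.79 CPM in vector cells (1.5). Ptges, the inducible prostaglandin E synthase, fell to 24.4 ± 1.15 CPM in F133V against 106 ± 1.59 CPM in vector cells (−2.13 ± 0.04, adjusted p = 4.6e-35), and the importer Slco2a1 fell to 10.5 ± 0.791 CPM in F133V against 26.0 ± 1.39 CPM in vector cells. Of NF-κB genes 11 were higher and 11 lower of 24: Rela, Nfkb2 and Ikbkg were higher (1.0, 0.91 and 1.75), and the feedback inhibitor Tnfaip3 (−1.5) and the coactivator Bcl3 (−3.11) were lower. The complement and adhesion list gave 4 higher and 8 lower of 13. In it the selectin Selp fell to 38.9 ± 0.764 CPM in F133V against 225 ± 3.85 CPM in vector cells and Sele to 0.461 ± 0.154 CPM in F133V against 5.16 ± 0.607 CPM in vector cells. The C1 protease C1s1 fell to 1.26 ± 0.304 CPM in F133V against 13.6 ± 0.202 CPM in vector cells and C1ra to 1.36 ± 0.272 CPM in F133V against 6.58 ± 0.265 CPM in vector cells, while Cfp, properdin, rose to 39.5 ± 1.85 CPM in F133V against 9.33 ± 0.322 CPM in vector cells.

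**Figure D3:**
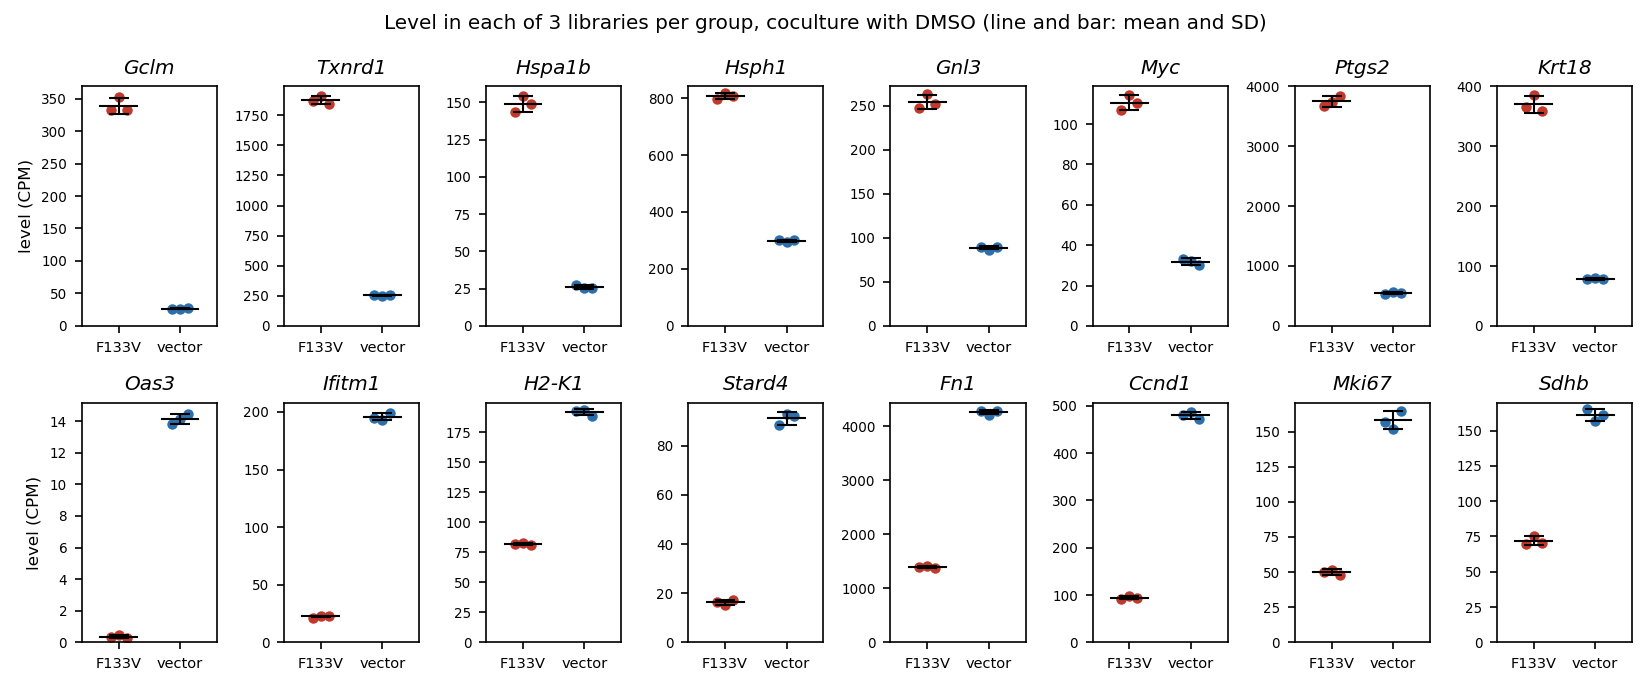
Each panel shows 1 gene, with its level in CPM on a linear axis from 0 for the 3 F133V libraries (left) and the 3 vector libraries (right); the line and bar are mean and SD. In none of the 16 panels do the groups overlap: the first row holds genes higher in F133V cells and the second row genes lower in them, such as Oas3 at 0.362 ± 0.0984 CPM in F133V against 14.1 ± 0.327 CPM in vector cells.

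Sterol synthesis was lower almost throughout, 26 of 29 against 3 higher (median −1.40). Stard4, a sterol carrier, read 16.4, 15.4 and 17.3 CPM in F133V libraries, against 88.2, 93.1 and 92.0 CPM in vector libraries (−2.48 ± 0.05, adjusted p = 3.8e-34). The enzymes Dhcr7, Nsdhl, Fdps, Mvk and Idi1 fell with log2 fold changes of −3.46 to −2.43. Npc1l1 stood apart at 9.62 ± 0.0392 CPM in F133V against 0.0862 ± 0.0815 CPM in vector cells, and the regulator Insig2 was higher (0.47). Fatty acid genes were lower in 24 of 30 cases. The desaturases led: Scd2 fell to 434, 431 and 434 CPM in F133V libraries, against 2675, 2732 and 2734 CPM in vector libraries, and Scd1 and Fads2 changed by −1.90 and −2.86. Elovl6, an elongase, fell to 15.3 ± 0.224 CPM in F133V against 139.5 ± 2.85 CPM in vector cells. Against the list, Lpin2, a phosphatidate phosphatase, rose to 613 ± 10.3 CPM in F133V against 170.1 ± 2.83 CPM in vector cells and Cpt1a, which admits fatty acids to mitochondria, to 95.1 ± 1.16 CPM in F133V against 45.9 ± 1.30 CPM in vector cells. Acacb, the acetyl-CoA carboxylase that limits that step, rose to 12.7 ± 1.07 CPM in F133V against 0.568 ± 0.0776 CPM in vector cells. In cholesterol export, Abca1 fell to 0.842 ± 0.136 CPM in F133V against 5.83 ± 0.293 CPM in vector cells and Apoe rose to 42.3 ± 1.69 CPM in F133V against 9.88 ± 1.22 CPM in vector cells (2.09).

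Glycolytic genes were lower in 21 of 26 cases, with the median at −0.57. Tpi1 read 615 ± 11.7 CPM in F133V against 1475 ± 7.70 CPM in vector cells, the lactate exporter Slc16a3 217 ± 6.07 CPM in F133V against 584 ± 3.61 CPM in vector cells and Pdk1, which closes pyruvate off from the mitochondria, 114 ± 1.2 CPM in F133V against 269.6 ± 3.48 CPM in vector cells (−1.24). Aldoc fell furthest, to 1.98 ± 0.249 CPM in F133V against 27.2 ± 1.24 CPM in vector cells. Eno2 and Pfkfb3 rose (1.2 and 0.82). Oxygen-responsive genes gave 21 lower and 7 higher of 31. The carbonic anhydrase Car9 fell to 0.448 ± 0.0862 CPM in F133V against 8.63 ± 0.437 CPM in vector cells and Car12 to 2.89 ± 0.193 CPM in F133V against 17.1 ± 1.18 CPM in vector cells. The oxygen sensor Egln3 fell to 91.7, 97.7 and 90.4 CPM in F133V libraries, against 344, 337 and 346 CPM in vector libraries. Kdm3a, a histone demethylase counted among the same targets, rose instead, to 452, 466 and 455 CPM in F133V libraries, against 154, 148 and 160.0 CPM in vector libraries (1.57 ± 0.03, adjusted p = 8.0e-37). Nuclear-encoded subunits of the respiratory chain were lower in 36 of 38 cases, by modest amounts (median −0.50). Sdhb, the iron-sulfur subunit of complex II, fell to 72.0 ± 3.01 CPM in F133V against 161 ± 4.09 CPM in vector cells (−1.16 ± 0.04, adjusted p = 9.7e-28), Sdhc to 63.8 ± 1.18 CPM in F133V against 129 ± 4.14 CPM in vector cells and Ndufv2, of complex I, to 26.7 ± 0.797 CPM in F133V against 58.2 ± 0.613 CPM in vector cells. Uqcrfs1 was the exception (0.15), and Uqcrc2 was not called. Uqcrfs1 was lower with library size alone, and not called without F133V replicate 2 (0.09). Of 15 mitochondrially encoded genes 3 were higher, 9 lower and 3 not called. The mRNAs mt-Nd5, mt-Nd1 and mt-Nd2 changed by −1.5, −1.10 and −1.06. The ribosomal RNAs mt-Rnr2 and mt-Rnr1 rose by 2.27 and 1.24, as did the mRNA mt-Nd6, by 0.39 (not called with library size alone), while mt-Nd4l, mt-Atp6 and mt-Atp8 were not called.

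Genes of cell division were lower. Of 40 mitosis genes 38 were lower and 2 higher (median −0.93). Mki67, the Ki-67 antigen of dividing cells, read 50.3, 51.7 and 48.0 CPM in F133V libraries, against 157, 152 and 165 CPM in vector libraries (−1.66 ± 0.04, adjusted p = 5.9e-32). Kif2c, a spindle motor, fell to 4.92 ± 0.345 CPM in F133V against 19.6 ± 0.612 CPM in vector cells, cyclin A2 (Ccna2) to 12.0 ± 0.265 CPM in F133V against 33.9 ± 2.31 CPM in vector cells and the checkpoint kinase Bub1b to 10.9 ± 0.299 CPM in F133V against 30.3 ± 1.22 CPM in vector cells. The 2 exceptions, Bub3 (0.21) and Kif20b (0.27), were not higher with library size alone. Ccnd1, cyclin D1, read 91.7, 98.6 and 94.1 CPM in F133V libraries, against 480.0, 487 and 473 CPM in vector libraries (−2.34 ± 0.02, adjusted p = 1.9e-42), and Ccnd2 and Ccnd3 were also lower (−0.84 and −1.24). Replication genes were lower in 34 of 47 cases, among them E2f2 at 3.27 ± 0.601 CPM in F133V against 15.3 ± 0.401 CPM in vector cells, Uhrf1 at 13.7 ± 1.36 CPM in F133V against 44.7 ± 0.103 CPM in vector cells and Rrm2, of deoxynucleotide synthesis, at 28.1 ± 0.812 CPM in F133V against 69.3 ± 0.685 CPM in vector cells. Pcna, the sliding clamp, was higher, at 146 ± 4.65 CPM in F133V against 82.2 ± 1.13 CPM in vector cells (0.83). Homologous recombination and Fanconi genes numbered 29 lower and 8 higher of 40. Brca2 read 5.75, 6.74 and 5.98 CPM in F133V libraries, against 21.4, 20.8 and 21.9 CPM in vector libraries (−1.79 ± 0.07, adjusted p = 4.0e-23), Rad54l 1.34 ± 0.211 CPM in F133V against 8.24 ± 0.553 CPM in vector cells and Bard1 5.59 ± 0.163 CPM in F133V against 13.6 ± 0.343 CPM in vector cells. Atm was not called (72.7 ± 1.26 CPM in F133V against 74.4 ± 3.11 CPM in vector cells). Parp1, the main target of olaparib, read 99.3 ± 2.31 CPM in F133V against 136 ± 4.14 CPM in vector cells (−0.45) and Parp3 26.6 ± 0.533 CPM in F133V against 83.2 ± 3.00 CPM in vector cells (−1.64), while the tankyrases Tnks and Tnks2 were higher (0.93 and 1.27). Among CDK inhibitors Cdkn2c and Cdkn2d fell (−2.07 and −1.0). Of p53 targets, Gadd45a, Plk2 and Plk3 rose by 1.58, 1.57 and 1.37, and Btg2 fell (−2.31).

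The matrix was lower in part. Fn1, fibronectin, one of the 10 most abundant transcripts of vector cells, read 1396, 1421 and 1383 CPM in F133V libraries, against 4275, 4210.0 and 4273 CPM in vector libraries (−1.60 ± 0.02, adjusted p = 5.6e-41). Collagens were split evenly, 10 higher and 10 lower of 24. Col3a1 fell to 35.7 ± 1.32 CPM in F133V against 309.8 ± 4.98 CPM in vector cells, Col6a1 to 5.98 ± 0.370 CPM in F133V against 58.3 ± 0.410 CPM in vector cells and Col6a2 to 0.778 ± 0.0302 CPM in F133V against 14.2 ± 0.0761 CPM in vector cells, and Col6a3, which assembles with Col6a1 and Col6a2, rose to 135 ± 3.07 CPM in F133V against 21.4 ± 1.65 CPM in vector cells (2.66 ± 0.04, adjusted p = 1.6e-38). Of other matrix genes 22 of 33 were lower. Thbs1, thrombospondin, fell to 0.841 ± 0.164 CPM in F133V against 18.8 ± 1.68 CPM in vector cells, and Tgfbi and Vcan changed by −2.56 and −2.15. Of basement membrane genes, Nid1 rose to 2343 ± 30.0 CPM in F133V against 927 ± 10.3 CPM in vector cells and Lamb1 to 1046 ± 25.7 CPM in F133V against 524 ± 5.27 CPM in vector cells. Proteases and inhibitors had no common direction: Mmp13 rose to 57.1 ± 3.01 CPM in F133V against 16.8 ± 0.190 CPM in vector cells, while Mmp11 fell to 18.9 ± 0.793 CPM in F133V against 66.4 ± 1.88 CPM in vector cells, Serpine2 to 38.2 ± 0.484 CPM in F133V against 209.6 ± 5.78 CPM in vector cells and Timp2 to 312 ± 4.56 CPM in F133V against 674 ± 13.1 CPM in vector cells. L1cam, a neural adhesion receptor, rose to 34.3, 33.1 and 32.6 CPM in F133V libraries, against 0.815, 1.12 and 1.17 CPM in vector libraries (5.01 ± 0.12, adjusted p = 1.3e-31). The hyaluronan receptor Cd44 and the proteoglycan Sdc1 fell (−1.29 and −1.24).

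The keratins of simple epithelia, Krt18 and Krt8, moved in opposite directions. Krt18 read 366, 385 and 359 CPM in F133V libraries, against 77.5, 79.6 and 78.2 CPM in vector libraries, while Krt8, its usual filament partner, read 0.269, 0.473 and 0.392 CPM in F133V libraries, against 15.0, 15.8 and 15.3 CPM in vector libraries. The changes were 2.24 ± 0.03, adjusted p = 7.0e-38 for Krt18 and −5.33 ± 0.13, adjusted p = 8.6e-31 for Krt8. Krt19 fell to 7.98 ± 0.458 CPM in F133V against 28 ± 0.834 CPM in vector cells, and Dsp, desmoplakin, rose to 69.5 ± 2.06 CPM in F133V against 11.6 ± 0.201 CPM in vector cells (2.58). Of mesenchymal regulators, Prrx1 and Snai1 were lower (−0.91 and −0.76), Snai2 and Zeb1 higher (0.56 and 0.45), and Tcf4 and Pdgfrb not called. Ly6a, the stem cell antigen Sca-1, fell to 16.5, 18.4 and 17.2 CPM in F133V libraries, against 136, 126 and 134 CPM in vector libraries (−2.92 ± 0.05, adjusted p = 1.2e-35). Of growth factor genes, Igfbp5 fell to 0.651 ± 0.126 CPM in F133V against 14.7 ± 1.81 CPM in vector cells (−4.50), Wnt5a to 0.674 ± 0.0970 CPM in F133V against 11.5 ± 0.288 CPM in vector cells (−4.10) and Tgfa to 1.26 ± 0.0714 CPM in F133V against 5.94 ± 0.236 CPM in vector cells. Kitl, stem cell factor, rose to 231 ± 9.45 CPM in F133V against 113 ± 4.12 CPM in vector cells and Inhbb, an activin chain, to 75.5 ± 0.949 CPM in F133V against 22.7 ± 1.08 CPM in vector cells. The BMP target Id2 fell to 4.10 ± 0.265 CPM in F133V against 17.7 ± 0.670 CPM in vector cells and Id3 to 5.28 ± 0.437 CPM in F133V against 38.6 ± 2.78 CPM in vector cells. Immediate early genes divided too: Fosl1 and Ier5 rose by 1.45 and 1.80, and Jun and Jund fell (−1.61 and −1.37). Of Hippo pathway genes, Ajuba rose to 173 ± 5.04 CPM in F133V against 39.0 ± 1.53 CPM in vector cells, Amotl2 to 40.8 ± 1.22 CPM in F133V against 13.4 ± 0.778 CPM in vector cells and Lats2 to 134 ± 1.02 CPM in F133V against 47.6 ± 2.03 CPM in vector cells. Of clock genes, Clock rose to 475 ± 7.09 CPM in F133V against 166 ± 4.13 CPM in vector cells and Nr1d2 to 283 ± 10.3 CPM in F133V against 69.7 ± 3.71 CPM in vector cells, while Per3 fell to 2.55 ± 0.156 CPM in F133V against 12.0 ± 0.595 CPM in vector cells and Dbp to 8.77 ± 0.551 CPM in F133V against 24.2 ± 0.510 CPM in vector cells. Bok and Bcl2, proteins of mitochondrial apoptosis, fell (−2.76 and −1.31), and Mcl1 and Tnfrsf10b rose by 0.85 and 1.01.

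Noncoding and structural RNA differed between groups. Gm26917, the most abundant gene of F133V libraries by mean level, took 3.47% to 3.65% of their gene counts and 0.249% to 0.269% in vector libraries. Rn7sk, the RNA that inhibits the elongation factor P-TEFb, read 262, 281 and 258 CPM in F133V libraries, against 11.9, 11.4 and 10.4 CPM in vector libraries (4.56 ± 0.05, adjusted p = 2.7e-42). Rpph1, the RNA of ribonuclease P, read 66.0 ± 5.01 CPM in F133V against 4.39 ± 0.599 CPM in vector cells, and among proteins of the same control Ccnt1 (cyclin T1) and Mepce, which caps Rn7sk, rose by 2.08 and 1.48. By annotated class, 40 of 65 small nuclear RNA genes were higher and 3 lower, and 62 of 137 small nucleolar RNA genes higher and 6 lower. Of 988 processed pseudogenes, 354 were higher, 81 lower and 553 not called. Their share of higher genes was near the 37.4% of all genes, and their share of lower genes was under the 42% of all genes. Protein-coding genes had 5016 higher and 5857 lower of 12547, and a fit to protein-coding genes alone called 5255 higher and 5650 lower. The abundant nuclear RNA Malat1 (6575 ± 1032 CPM in F133V against 6441 ± 176 CPM in vector cells) and the transcript Lars2 were not called. Yam1 took 3.98% of counts in F133V replicate 1 and 2.45% and 2.68% in the other F133V libraries. It was not called (log2 fold change −0.13), but was without that library (−0.38), as was Lars2 (−0.27). Malat1 was then called too, with its sign reversed (−0.11, adjusted p = 0.0283 by the same F test). So was the mitochondrial mRNA mt-Nd4l (−0.56, adjusted p = 0.0173). Leaving that library out gave 12414 calls in place of 12686.

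The effect in coculture was set against that in cells grown alone with DMSO. The comparisons share no library. Alone, 5378 genes were higher and 5431 lower in F133V cells (67.7% called). Of the genes higher in coculture, 3887 were also higher alone and 590 were lower alone, and of those lower in coculture, 4183 were also lower alone and 846 were higher alone. The difference of effects, coculture minus monoculture, was called for 62.7% of genes (30.2% positive, 32.5% negative), so 48.1% of calls were positive, and 35.7% with library size alone. For heat shock chaperones 21 of 22 differences were positive and 0 negative: the list's median effect was 0.94 in coculture and 0.38 alone. For ribosome biogenesis 39 of 46 were positive and 1 negative (medians 0.64 and 0.21). For interferon-stimulated genes 25 of 37 were negative and 0 positive (medians −1.27 and −0.09), for class I presentation 14 of 17 negative and 1 positive, and for the respiratory chain 35 of 38 negative and 0 positive (medians −0.50 and −0.01). For endoplasmic reticulum chaperones 20 of 28 were negative and 3 positive, and their median was 0.17 in coculture and 0.72 alone. Mitosis genes had medians close to each other in both settings (−0.93 and −0.96), with 8 positive and 13 negative. Macrophage transcripts were present in 2 of the 3 vector monoculture libraries (Lyz2 at 3.57 and 4.6 CPM, against 0.738 CPM in the other). Without those 2, which leaves that group 1 library, assumed to vary like the other groups, the difference was called for 9106 genes in place of 10008. The list counts then were 19 positive for heat shock, 37 for ribosome biogenesis, 26 negative for interferon-stimulated genes and 35 negative for the respiratory chain.

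Single genes show the size of these differences. Hsph1 changed by 1.43 in coculture and 0.39 alone (difference 1.04 ± 0.03). Stat2 changed by −1.40 and −0.45 (difference −0.95 ± 0.06), H2-D1 by −1.23 and −0.02 (difference −1.22 ± 0.05) and Sdhb by −1.16 and −0.34 (difference −0.82 ± 0.05). Cd47 changed by −2.01 in coculture and −0.19 alone (difference −1.82 ± 0.04), and Gclm by 3.69 and 2.20 (difference 1.49 ± 0.05). For Mki67 the values were −1.66 and −1.73, a difference of 0.07 ± 0.05 that was not called. Csf1 rose less in coculture (0.65) than alone (2.09; difference −1.44 ± 0.04).

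With olaparib in the same coculture the effect of F133V differed from that with DMSO, and these effects share no library. The 6 coculture libraries with DMSO enter both this difference and the one from monoculture, with opposite sign. The differences are therefore not independent, and opposite signs in a list can reflect those 6 libraries alone. With olaparib, 60% of genes were called between F133V and vector cells. The difference, olaparib minus DMSO, was called for 67.4% of genes (35.4% positive, 32% negative), so 52.6% of calls were positive, and 65.9% with library size alone. All 22 heat shock chaperones had a negative difference, their median effect being 0.04 with olaparib and 0.94 with DMSO. In ribosome biogenesis 42 of 46 were negative and 1 positive (medians 0.01 and 0.64). The difference was positive for 28 of 37 interferon-stimulated genes and negative for 0 (medians −0.07 and −1.27), positive for 24 of 29 sterol genes (medians −0.47 and −1.40) and positive for 32 of 40 mitosis genes (medians −0.41 and −0.93). Endoplasmic reticulum chaperones had 24 positive and 0 negative of 28, with medians of 0.96 with olaparib and 0.17 with DMSO. Gclm changed by 0.31 with olaparib and 3.69 with DMSO (difference −3.38 ± 0.05). Fgfr4 changed by 0.83 and 7.45 (difference −6.62 ± 1.22) and Rn7sk by 1.86 and 4.56 (difference −2.70 ± 0.09). For some falls the difference was not called: Krt8 changed by −5.36 and −5.33 (difference −0.03 ± 0.30, adjusted p = 0.93), and Ccl2 by −2.30 and −2.19 (difference −0.11 ± 0.18, adjusted p = 0.61).

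**Figure D4:**
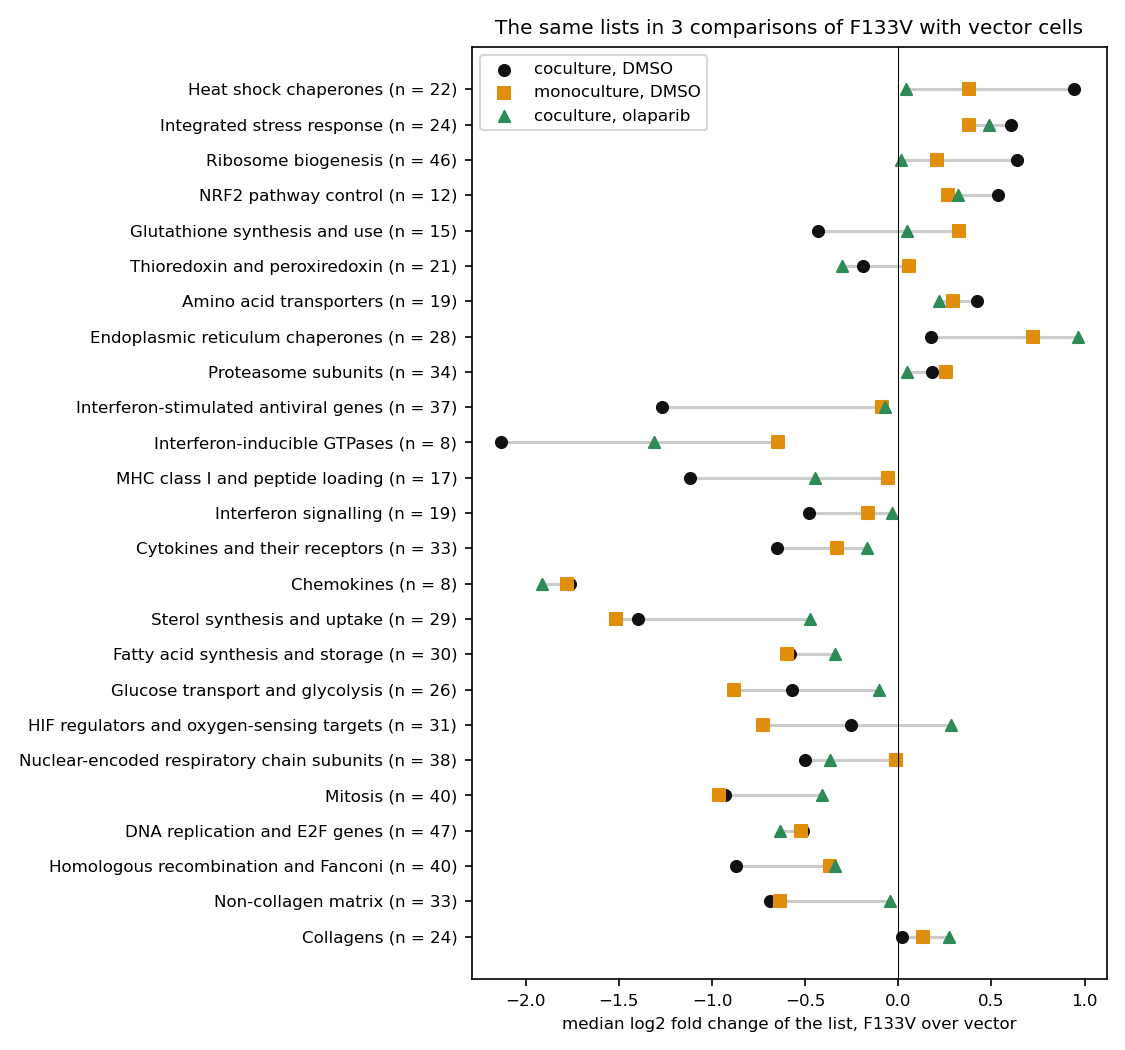
For each of 25 lists, symbols give the median log2 fold change of F133V over vector cells in coculture with DMSO (black circle), alone with DMSO (orange square) and in coculture with olaparib (green triangle). Heat shock chaperones have the circle furthest right (0.94 against 0.38 and 0.04), interferon-stimulated genes have the circle left of both other symbols (−1.27 against −0.09 and −0.07), and mitosis genes have circle and square together (−0.93 and −0.96) with the triangle at −0.41.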

How the data were processed

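RNA of mouse cancer cells was sequenced, and the authors deposited a table of raw counts per gene for each of the 36 libraries. Per the submitters' processing notes, STAR, TopHat, HTSeq, DESeq2 and the GRCm38 build were used. Which aligner made these counts, tool versions and strand settings were not given in the sources used. 102 of the 306 genes named have exons that overlap another gene (Gclm, Gnl3, Krt8, Vil1, Plekha6, Ccnd1, Fn1, Scd2, L1cam and Brca2 among them), so their counts are less certain. HTSeq summary lines were left out of library sizes.

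The 24 cancer libraries of 8 groups were fitted together with edgeR 4.0.16 (quasi-likelihood F test, TMM scaling, genes kept by filterByExpr with its minimum count at 10) in R 4.3.3, with Benjamini-Hochberg adjustment over all genes tested, called at an adjusted p under 0.05. SE is the fold change divided by the root of F. The differences of effects were contrasts of the same fit. DESeq2 1.42.0, other scalings and filters, protein-coding genes alone, the compared libraries alone, a replicate block and leaving out each library were tried. The test was tried on simulated data in which 200 genes were changed in 1 group. Since 79.5% of genes were called in the real data, that trial does not check the scaling assumption here. Fold bounds against a group at 0 use 3 counts over the group.

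The 60 gene lists, their members and the tests were chosen with earlier results of these data known. The 6 libraries were taken by their labels. Named genes are, per list, up to 8 called members of at least 5 CPM with the largest change and up to 3 not called or opposed; the 12 largest rises and falls; genes nearly absent in 1 group; the 10 most abundant; and the leading differences of effects. Genes named beside these rules (Spop, the libraries' markers, and members given as examples) were chosen after their values were seen. Some genes that the rules name are not reported here.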

Additional observations from a re-analysis of the deposited data

Results flagged for a closer look

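The effect of F133V differed from that in monoculture for 10008 genes and from that in coculture with olaparib for 10751 genes, by edgeR's quasi-likelihood test of the difference itself with Benjamini-Hochberg adjustment. Genes with the smallest adjusted p, and genes called in opposite directions in the effects compared, are given here as values.

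Coculture minus monoculture, Ly6c1 and Ly6a, surface antigens of the same family, differed by −3.29 ± 0.06 and −3.47 ± 0.07 (SE): both were lower in F133V cells in coculture (−2.91 and −2.92) and higher alone (0.38 and 0.54). Timp2, a metalloproteinase inhibitor, differed by −1.49 and Preb, of vesicle export, by −1.41, again lower in coculture and higher alone. Cdsn, corneodesmosin, differed by −2.76 and C1ra, a complement protease, by −2.74 in the same way. Krt18 differed by 2.27 and Txnrd1 by 1.34. Kdm3a (1.64), the constitutive chaperone Hsp90ab1 (1.19), Ttn, titin (3.58), and the metalloproteinase Mmp3 (3.01) were higher in coculture and lower alone.

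Olaparib minus DMSO in coculture, the oxidant defence genes Akr1b3, Gclm and Txnrd1 differed by −3.39, −3.38 and −2.28, and Hsph1 by −1.81. Scd2 differed by 2.44, Ankrd44 by 2.42, Angptl2 by 2.13 and Ccnd1 by 1.91. Npc1l1 (−9.46 ± 1.34, SE), Acacb (−6.78), the iron reductase Cybrd1 (−4.98), the interleukin receptor chain Il4ra (−4.85), Ypel1 (−4.67) and Espnl (−4.55) were higher in F133V cells with DMSO and lower with olaparib. In vector cells with DMSO these last 6 genes averaged 0.0862 (Npc1l1) to 1.06 CPM (Il4ra), and fitted fold changes at such levels depend on the prior count.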

How the results depend on the processing

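The count of 12686 called genes ranged from 10905 (protein-coding genes only) to 13306 (no filter on low counts). DESeq2 gave 12476, DESeq2's size factors in edgeR 12708, library size alone 12777 and the compared groups alone 12296. The replicate block gave 12668, with 10013 and 10751 for the differences of effects. Same-numbered libraries of the groups did not deviate together (correlations of −0.015 to 0.012), so the numbers were not taken to pair them. Leaving out each library gave 12401 to 12576. The difference from monoculture ranged from 9106 to 10089 genes (9706 to 9846 leaving out each library) and that between treatments from 9610 to 10903 (10454 to 10559). Called list members numbered 1248, and 1221 to 1237 leaving out each library. Library size alone had the widest effect: it turned the sign of 373 calls, and 26 of 42 list counts that moved by over 1.5 times did so under it. Of named genes, it changed the sign of Bub3 (−0.05), Fkbp4 (−0.23), Malat1 (−0.22), Mnt (−0.24), Tcf4 (−0.25), Uqcrc2 (−0.24) and Uqcrfs1 (−0.10), and Malat1 ranged from −0.11 (without F133V replicate 1) to 0.10 leaving out each library.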

Other observations

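Several gene groups have not yet been described. Autophagy and lysosome genes gave 23 higher and 13 lower of 42 tested, which turned to 11 higher and 25 lower with library size alone. Atp6v1h, of the proton pump, read 522 ± 9.39 CPM in F133V against 213 ± 5.0 CPM in vector cells (1.29), and the lysosomal enzyme Glb1 24.2 ± 0.578 CPM in F133V against 59.3 ± 1.29 CPM in vector cells (−1.29). Of glutathione transferases and exporters 8 were higher and 9 lower of 19. Mgst3 read 4.03 ± 0.269 CPM in F133V against 33.2 ± 1.44 CPM in vector cells (−3.04) and Gstp1 492 ± 15.0 CPM in F133V against 245 ± 4.79 CPM in vector cells (1.0). Of 21 angiogenic factors 6 were higher and 12 lower. The semaphorin Sema3c read 1.29 ± 0.404 CPM in F133V against 17.6 ± 0.623 CPM in vector cells (−3.74), and Sema3e 31.8 ± 1.49 CPM in F133V against 9.70 ± 0.105 CPM in vector cells (1.71). Of apoptosis regulators 11 were higher and 20 lower of 33, with Ripk1, a kinase of inflammatory cell death, at 121 ± 2.67 CPM in F133V against 56.1 ± 3.35 CPM in vector cells (1.11). Of 26 replication-dependent histone genes 8 were higher and 8 lower, and Hist1h1c read 3.26 ± 0.105 CPM in F133V against 23.8 ± 0.841 CPM in vector cells (−2.87). These shares stand beside 37.4% higher and 42% lower for all genes.

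By chromosome, the median log2 fold change was −0.317 on chromosome 4 (1000 genes; 269 higher, 530 lower), against −0.278 in monoculture and −0.352 with olaparib. It was 0.209 on chromosome 19 (532 genes; 259 higher, 182 lower), against 0.285 and 0.252, and 0.195 on chromosome 14 (500 genes), against 0.252 and 0.294. On chromosome 10 it was −0.202 in coculture, against −0.036 alone and −0.05 with olaparib.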
